A study of Mus musculus with 2 samples.

Results

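The 83 splicing factor genes described here are those of 10596 gene symbols whose names begin with Srsf, Hnrnp, Sf3a, Sf3b, Snrp, Snrnp or Luc7l, or with Rbm and a digit, together with Rsrp1, with antisense genes ending in os left out. They comprise 11 genes of SR proteins, 20 of heterogeneous nuclear ribonucleoproteins (hnRNPs), 6 of the SF3A and SF3B complexes, 16 of proteins of small nuclear ribonucleoproteins (snRNPs), 3 Luc7-like genes, 26 RBM genes and Rsrp1. They were picked by symbol, with earlier results of these data known, and not every RBM protein is a core splicing factor. Nuclear RNA was measured by droplet sequencing of transcript 3′ ends in hippocampal nuclei of aged male mice. The control library came from 3 pooled mice that received vehicle by intraperitoneal injection each day for 10 days from 10 weeks of age. The other library, called the GWI library after Gulf War Illness, came from 3 pooled mice given, on the same schedule, pyridostigmine bromide at 0.7 mg/kg, a cholinesterase inhibitor, and 200 mg/kg of permethrin, a pyrethroid insecticide acting on sodium channels. Both groups were killed at 19 months, and the strain is C57BL/6J, although the genotype label of the GWI library reads C57/BL7.

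The authors deposited 9 tables, 1 per cell type, that give for each gene a log2 fold change, GWI over control, and the percentage of nuclei of each library in which it was detected. All such values below come from the authors' deposited tables, and all directions rest on reading their first group as GWI. Each group is 1 library, so there is no replicate spread, no test and no interval, and the 9 tables describe the same pair of libraries rather than 9 repeats. A gene is listed in a table only if it was detected in at least 10% of nuclei of 1 library and differed by at least 0.05 on the log2 scale. Counts and medians therefore cover the listed genes only. The labels state 25000 reads or more for each nucleus, and the sources used here give neither the number of nuclei nor the depth reached in each library.

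Introns are removed by the spliceosome, which is built on each transcript from snRNPs. The U1 snRNP recognises the 5′ splice site, the U2 snRNP with SF3A and SF3B binds the branch point, and the U4, U5 and U6 particles then join. SR proteins bind exons and favour their inclusion through domains rich in arginine and serine (RS domains), whereas hnRNPs often oppose inclusion. Many genes of both groups control their own level by splicing in an exon or keeping an intron that marks the transcript for decay or holds it in the nucleus. Many splicing factors gather in nuclear speckles, and neurons use alternative splicing extensively.

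The RS repeat is the feature that links Rsrp1, the SR proteins and the Luc7-like proteins, and it can be read in the coding sequence. The 30-codon window with the most arginine and serine neighbours is shown for 4 genes that recur in the results. Sequences are from GENCODE M21 transcripts on GRCm38, written 5′ to 3′ on the coding strand, with codons that form an arginine-serine or serine-arginine pair in capitals.
Rsrp1, codons 33 to 62, in exon 2 at chr4:134924023-134924112, plus strand: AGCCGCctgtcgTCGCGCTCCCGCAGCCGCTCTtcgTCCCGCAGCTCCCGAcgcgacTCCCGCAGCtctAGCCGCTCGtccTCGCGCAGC
Srsf5, codons 198 to 227, in exon 8 at chr12:80949757-80949846, plus strand: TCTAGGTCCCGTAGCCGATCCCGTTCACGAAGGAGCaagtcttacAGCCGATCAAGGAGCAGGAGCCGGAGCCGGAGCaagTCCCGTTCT
Srsf7, codons 127 to 156, over exons 3 to 5 within chr17:80204226-80205269, minus strand: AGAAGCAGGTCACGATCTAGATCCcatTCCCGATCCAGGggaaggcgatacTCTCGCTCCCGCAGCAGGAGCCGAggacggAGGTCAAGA
Luc7l3, codons 291 to 320, in exon 8 at chr11:94296901-94296990, minus strand: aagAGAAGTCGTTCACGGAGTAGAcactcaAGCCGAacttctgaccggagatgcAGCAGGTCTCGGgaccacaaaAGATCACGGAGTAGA
The windows hold 16 such pairs in Rsrp1, 22 in Srsf5, 19 in Srsf7 and 14 in Luc7l3.

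The promoters of Rsrp1, Srsf5 and Srsf7, which recur in the results, are shown as well. Each is the 250 bases before the annotated start in RefSeq on GRCm38.p6, 5′ to 3′ on the gene's strand, with 3 motifs in capitals: the CCAAT box (CCAAT), the GC box (GGGCGG) and an ETS site (CCGGAAG), each searched on both strands.
Rsrp1, chr4:134923375-134923624, plus strand: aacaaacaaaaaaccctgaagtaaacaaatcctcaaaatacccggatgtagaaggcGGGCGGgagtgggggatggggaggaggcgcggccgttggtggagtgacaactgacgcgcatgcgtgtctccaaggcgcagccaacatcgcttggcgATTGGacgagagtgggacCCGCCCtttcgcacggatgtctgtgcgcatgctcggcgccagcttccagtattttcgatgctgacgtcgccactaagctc
Srsf5, chr12:80945249-80945498, plus strand: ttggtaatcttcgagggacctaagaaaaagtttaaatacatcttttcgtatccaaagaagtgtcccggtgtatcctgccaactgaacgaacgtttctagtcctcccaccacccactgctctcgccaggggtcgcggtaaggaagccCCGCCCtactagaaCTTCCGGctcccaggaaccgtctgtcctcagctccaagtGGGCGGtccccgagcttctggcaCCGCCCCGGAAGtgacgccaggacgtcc
Srsf7, chr17:80207306-80207555, minus strand: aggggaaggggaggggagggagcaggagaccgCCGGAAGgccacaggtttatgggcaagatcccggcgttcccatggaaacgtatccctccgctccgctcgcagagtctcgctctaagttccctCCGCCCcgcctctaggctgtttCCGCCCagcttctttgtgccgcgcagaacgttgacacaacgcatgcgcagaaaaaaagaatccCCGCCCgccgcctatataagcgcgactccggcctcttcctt
The Rsrp1 window held 1 CCAAT box and 2 GC boxes. That of Srsf5 held 3 GC boxes and 2 ETS sites, of which a GC box and an ETS site overlap near its end, and that of Srsf7 held 3 GC boxes and 1 ETS site. The RefSeq table held promoters of 72 of the 83 genes, and in these windows the ETS letters occurred in 27.8%, against 12.7% of 8210 listed genes and 7.05% of all 27025 promoters. The CCAAT letters occurred in 44.4% against 35.4% and 34.5%. The GC box was present in 59.7% of the splicing factor promoters, against 59.8% of those of all listed genes and 32.9% of all promoters. These shares were not matched for gene length. A match is a description of the sequence and shows no binding, and a link of these motifs to the values below was not tested.

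The cell types are the authors' own, and their markers were detected unevenly. In control nuclei the listed markers of the labelled type were detected in 65.8% to 84.1% of microglia, 68.1% to 95.8% of OPCs, 52.2% to 97.1% of oligodendrocytes and 15.9% to 73% of pericytes. Among astrocytes 3 of their markers were listed, in 13.9% to 34.9% of control nuclei, whereas the excitatory neuron markers Camk2a and Slc17a7 were in 63.4% and 47.9%. The inhibitory neuron table had Camk2a in 82.6% of control nuclei against 59.8% for Gad2, and Other had Camk2a in 100%. Markers within the 0.05 difference are not listed and were not checked. The part of RNA from other cells in the values below was not tested.

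Splicing factor genes lay toward higher values in the GWI library in every table. In excitatory neurons 47 of 60 listed members were higher, a share of 78.3%, against 52.3% of all listed genes. In inhibitory neurons 41 of 54 were higher, or 75.9% against 50.6%, and in oligodendrocytes 23 of 27, or 85.2% against 44.5%. Among oligodendrocyte precursor cells (OPCs) 29 of 39 were higher, or 74.4% against 50.7%. The shares were highest in astrocytes and microglia, with 41 of 47 in astrocytes, or 87.2% against 48.6%, and 32 of 36 in microglia, or 88.9% against 46.8%. Endothelial cells had 40 of 54 higher, or 74.1% against 48.4%, and the group named Other 52 of 68, or 76.5% against 53.1%. The pericyte share was the nearest to its background, with 18 of 32 members higher, or 56.2% against 47.2%. In all, 323 of 417 member values were above 0.

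The differences were small in most cell types. The median log2 fold change of listed members was 0.11 for excitatory neurons, 0.18 for inhibitory neurons, 0.15 for astrocytes, 0.17 for OPCs, 0.19 for oligodendrocytes, 0.21 for microglia and 0.14 for Other. The medians of all listed genes in those tables were 0.06, 0.05, -0.06, 0.05, -0.07, -0.06 and 0.06. Endothelial cells had a member median of 0.36 against -0.07, and pericytes 0.18 against -0.11, in tables whose standard deviation over all genes was 0.80 and 0.96 against 0.21 to 0.38 in the other 7. With members held to detection in at least 10% of nuclei of both libraries, the endothelial median was 0.18.

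Few members passed a log2 fold change of 0.5 outside the vascular tables, and counts of 0 or 1 in a table say little beside the background. In excitatory neurons and oligodendrocytes 0 members did so upward, where 1.38% and 1.95% of all genes did. Upward there was 1 member in inhibitory neurons (background 1.98%), 1 in astrocytes (1.33%), 1 in microglia (2.96%), 4 of 39 in OPCs (9.68%) and 5 of 68 in Other (4.28%). In endothelial cells 22 of 54 members were at least 0.5 higher, against 22.7% of all genes there, and in pericytes 9 of 32, against 24.2%. Of those 22, 8 reached 10% detection in the GWI library alone and so were listed only through the library where they were higher. Among genes at 10% or more in both libraries, 14 of 42 endothelial members and 18.7% of all genes were past 0.5, and 29 of 42 and 48.5% were above 0. Past -0.5 there were 4 members in endothelial cells (background 23.6%), 7 in pericytes (28.2%) and 1 in Other (2.89%). No member passed -0.5 in excitatory neurons (0.765%), inhibitory neurons (0.583%), oligodendrocytes (1.32%), OPCs (6.59%), astrocytes (1.02%) or microglia (2.29%).

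**Figure D1:**
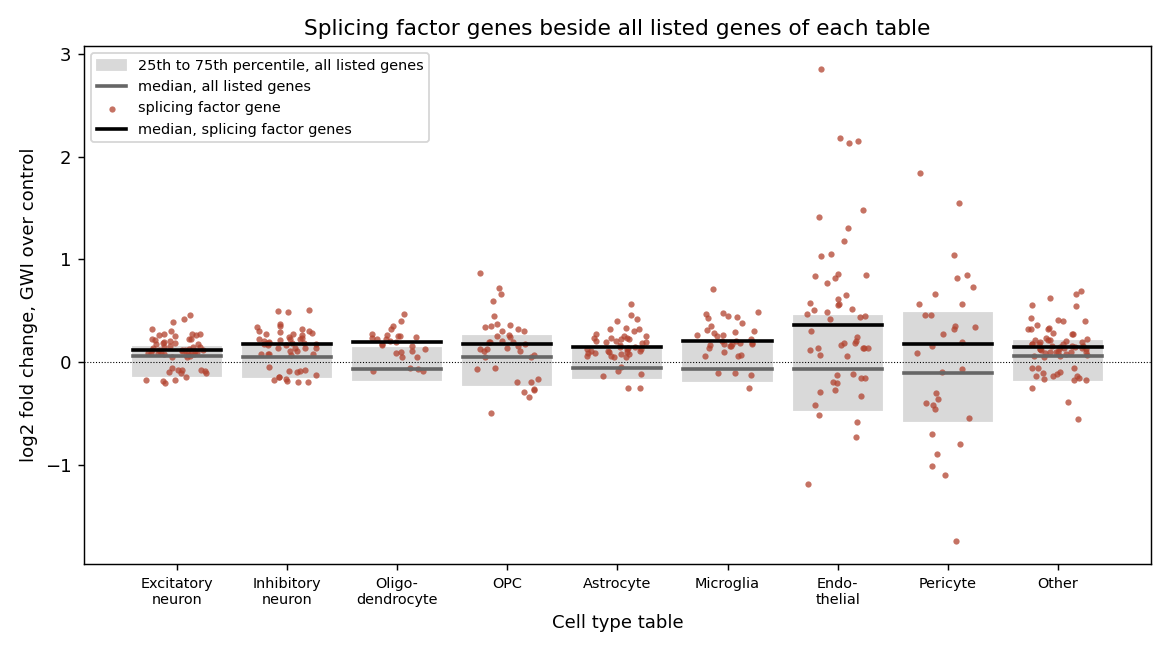
Log2 fold change, GWI over control (vertical axis), of each listed splicing factor gene (red points) in the 9 cell type tables, with the median of these genes (black line), the median of all listed genes (grey line) and their 25th to 75th percentile (grey box). The black line lies above the grey line in all 9 tables, by the least in excitatory neurons (0.11 against 0.06), and the points of endothelial cells and pericytes spread most widely.

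Some genes kept the same direction from cell type to cell type. Of the 38 members listed in at least 6 tables, 11 were higher in every table that lists them, namely Rsrp1, Luc7l2, Rbm25, Rbm28, Sf3b1, Sf3b3, Hnrnph1, Hnrnpc, Snrnp70, Srsf1 and Srsf3. Over all 2853 genes listed in at least 6 tables, 231 were, a share of 8.1%. In the 7 tables without endothelial cells and pericytes, 24 of the 38 were higher in each table that lists them, against 17.8% of the 2853. None of the 38 was lower in each of those tables, against 25.6%, or 730 genes.

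**Figure D2:**
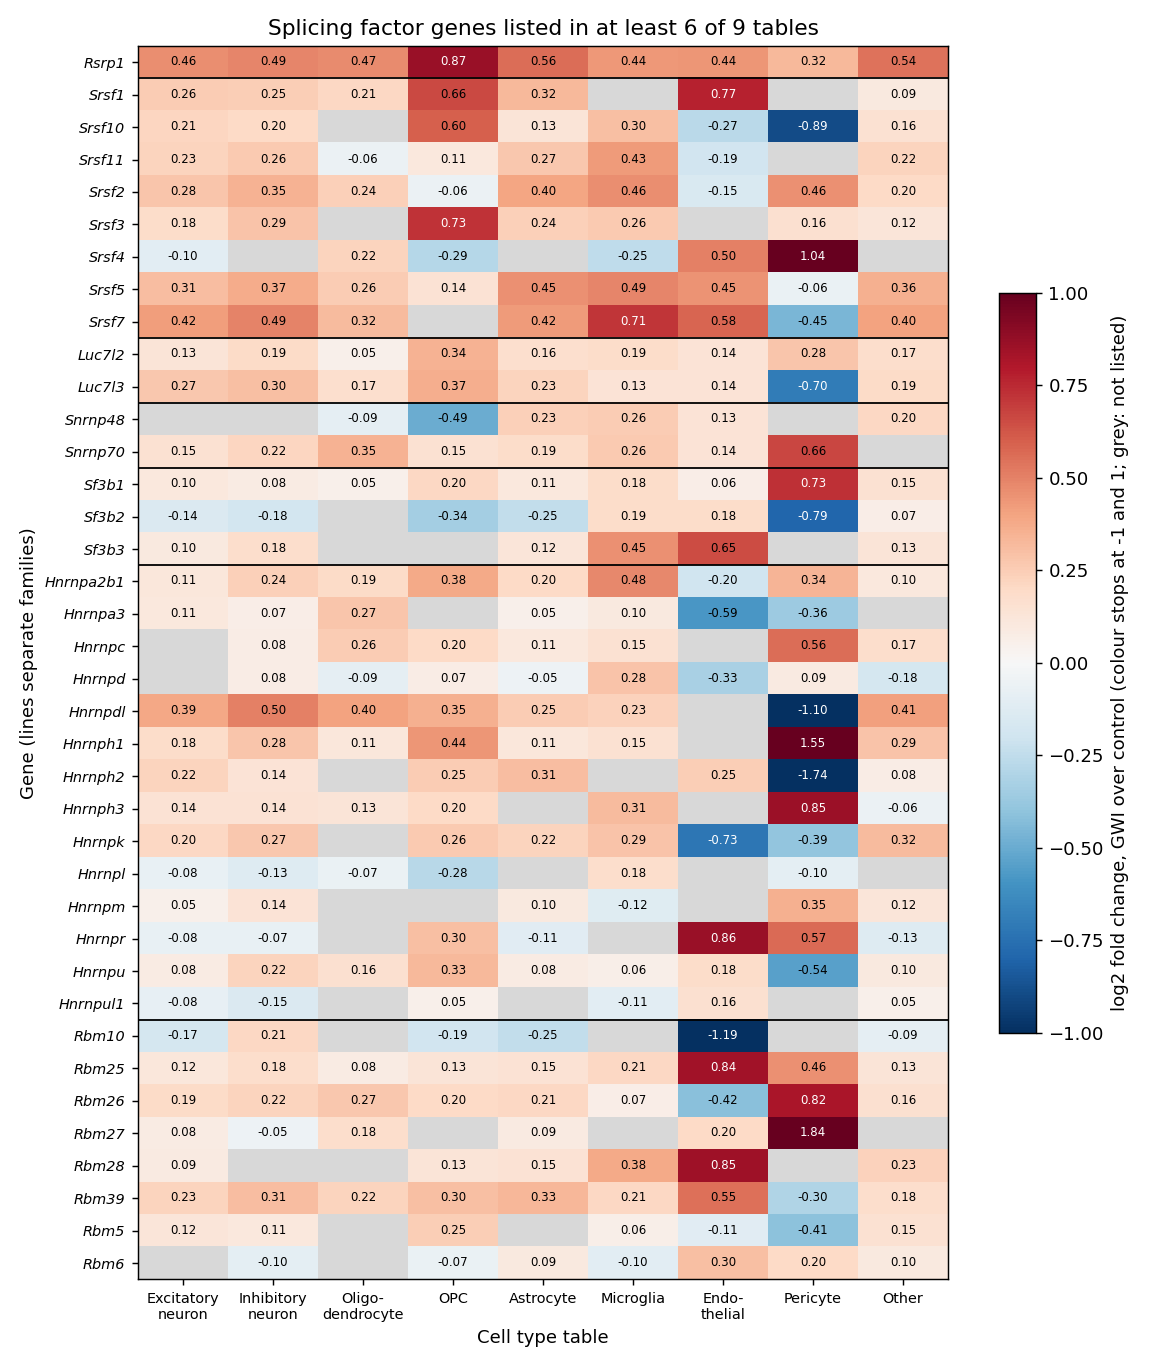
Log2 fold change of the GWI over the control library for the 38 splicing factor genes listed in at least 6 of 9 tables, with families separated by lines, red for higher and blue for lower values, and grey where a table does not list the gene. Rsrp1 is red in every column, at 0.32 to 0.87, Sf3b2 and Hnrnpl are blue in most columns that list them, and the pericyte column holds both the deepest blue and deep red cells.

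Rsrp1 encodes an arginine- and serine-rich protein of little known function, and the gene was higher by at least 0.32 in every table. It lies on chromosome 4 from 134923592 to 134927671 on the plus strand. Among excitatory neurons 80.1% of GWI and 68% of control nuclei had it detected, among inhibitory neurons 73.2% and 63.4%, and in Other 96.7% and 88.8%. Both neuron types and Other thus shared a direction at high detection. In astrocytes the shares were 73.3% against 59.8%, in oligodendrocytes 39% against 29.6%, and in microglia 43.9% against 32.8%. The widest gap was in OPCs, with 49.6% against 26.5%, and the narrowest in endothelial cells (37.9% against 33.7%) and pericytes (25.6% against 22.2%). Its log2 fold change in the authors' deposited tables was 0.46 for excitatory neurons, 0.49 for inhibitory neurons, 0.56 for astrocytes, 0.87 for OPCs, 0.47 for oligodendrocytes, 0.44 for microglia, 0.44 for endothelial cells, 0.32 for pericytes and 0.54 for Other. It was the highest member in excitatory neurons, oligodendrocytes, OPCs and astrocytes. Of the 323 genes listed in all 9 tables, 31 were above 0 in each, and only Atp6v0b, named after its values were seen, had a lowest value at or above that of Rsrp1. Many genes still lay above Rsrp1 within a table, from 37 in astrocytes to 260 in Other, with 847 in pericytes and 1304 in endothelial cells.

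**Figure D3:**
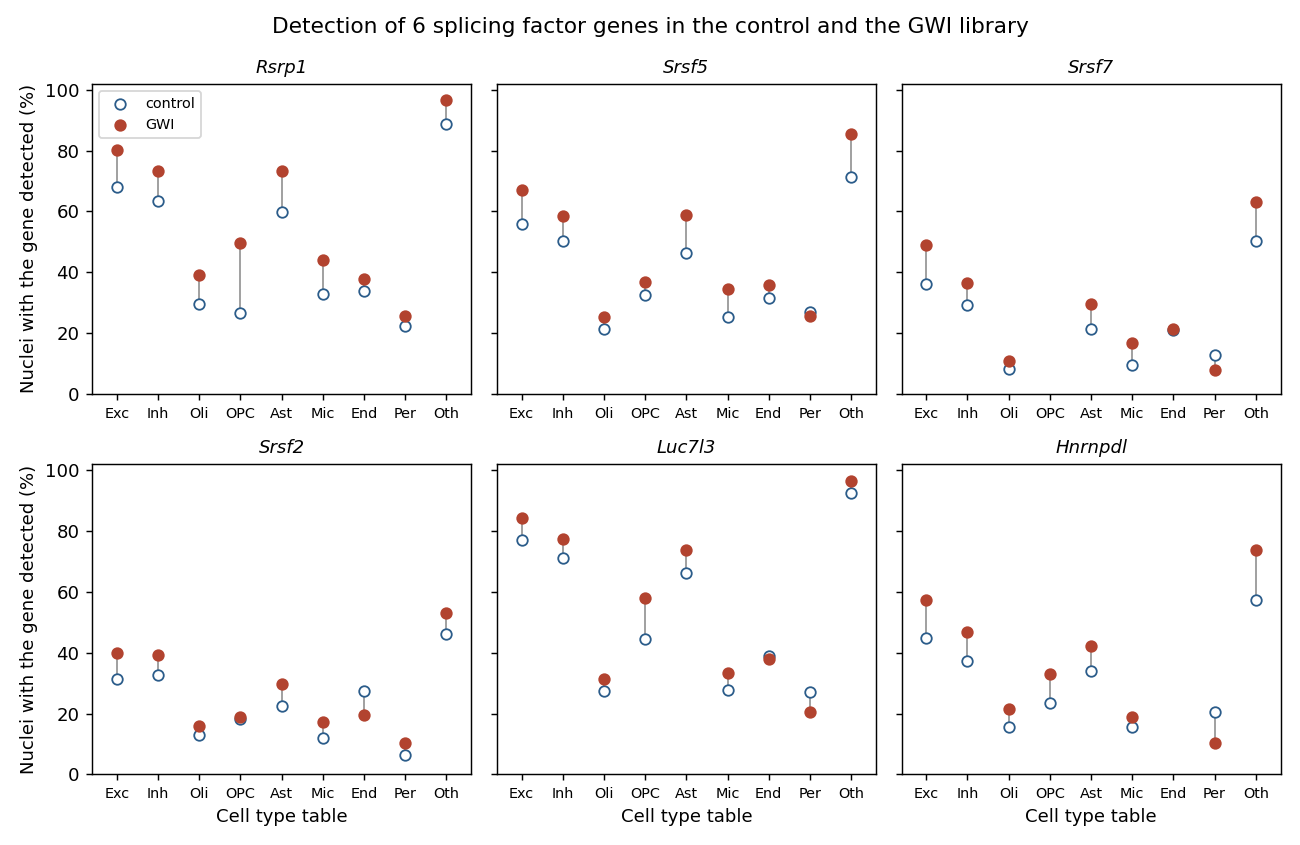
Percentage of nuclei with the gene detected (vertical axis) in the control library (open circles) and the GWI library (filled circles) for 6 splicing factor genes in each cell type table, with no point where a table does not list the gene. The filled circle of Rsrp1 lies above the open one in all 9 tables, for example 49.6% over 26.5% in OPCs, whereas for Srsf7, Luc7l3 and Hnrnpdl it lies below in pericytes.

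The SR protein genes were higher in most cell types. Of the listed SR genes, 9 of 10 were higher in excitatory neurons, 9 of 9 in inhibitory neurons, 8 of 8 in astrocytes, 6 of 8 in OPCs, 5 of 6 in oligodendrocytes, 7 of 8 in microglia and 9 of 10 in Other. Their median log2 fold change was 0.22, 0.29, 0.30, 0.16, 0.23, 0.39 and 0.21 in that order. In endothelial cells 4 of 7 were higher and in pericytes 3 of 6.

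Srsf7, an SR protein with a zinc knuckle that also takes part in mRNA export, had the largest value of the SR genes in both neuron types, oligodendrocytes, microglia and Other. It was detected in 49.1% of excitatory neurons of the GWI library against 36.2% of the control library, in 36.5% against 29.1% of inhibitory neurons, in 29.7% against 21.2% of astrocytes and in 16.8% against 9.5% of microglia. The GWI library was thus higher in each of these. Its log2 fold change was 0.42 for excitatory neurons, 0.49 for inhibitory neurons, 0.42 for astrocytes, 0.32 for oligodendrocytes, 0.71 for microglia, 0.58 in endothelial cells, 0.40 in Other and -0.45 in pericytes. Its microglial value was the only one of a member past 0.5 there, with control detection just under the 10% floor. Pericytes, with 7.7% against 12.7% of nuclei, ran the other way. OPCs do not list the gene.

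Srsf5, which binds exonic enhancers, was detected in 66.9% of GWI against 55.9% of control excitatory neurons, 58.5% against 50.4% of inhibitory neurons, 58.7% against 46.2% of astrocytes and 34.4% against 25.3% of microglia. Its log2 fold changes were 0.31, 0.37, 0.45 and 0.49 in those tables, 0.26 in oligodendrocytes, 0.14 in OPCs, 0.45 in endothelial cells and 0.36 in Other. The pericyte value was -0.06, so that 8 of 9 tables had it higher. Srsf2, the speckle protein also called SC35, was higher in 7 of 9 tables, at 0.28 for excitatory neurons, 0.35 for inhibitory neurons, 0.40 for astrocytes, 0.24 for oligodendrocytes, 0.46 for microglia, 0.46 for pericytes and 0.20 for Other. OPCs had -0.06 and endothelial cells -0.15. Srsf2 lies opposite Mfsd11 and Mettl23 on the other strand, and whether the counting used strand is not stated, so reads of these neighbours cannot be told apart here.

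Srsf1, the founding SR protein, and Srsf3, the smallest, were higher in each of the 7 tables that list them. Both had their largest value outside endothelial cells in OPCs, at 0.66 for Srsf1 and 0.73 for Srsf3, where Srsf10, which turns into a splicing repressor when dephosphorylated, was at 0.60. Srsf1 was detected there in 27.6% of GWI nuclei against 18.1%, Srsf3 in 28.7% against 17.6% and Srsf10 in 25.2% against 18.1%. These 3 genes and Rsrp1 were the 4 members past 0.5 in OPCs. Srsf1 stood at 0.26 for excitatory and 0.25 for inhibitory neurons, and Srsf3 at 0.18 and 0.29. Srsf11, a speckle protein related to the SR family, was higher in 6 of 8 tables, between 0.11 in OPCs and 0.43 in microglia, with -0.06 in oligodendrocytes and -0.19 in endothelial cells. Srsf4 did not follow the other SR genes. It stood at -0.10 in excitatory neurons, -0.29 in OPCs and -0.25 in microglia, and at 0.22 in oligodendrocytes, 0.50 in endothelial cells and 1.04 in pericytes.

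Of the U1 snRNP and Luc7-like genes, which act at the 5′ splice site, Snrnp70, Luc7l2 and Luc7l3 were listed in 8 or 9 tables, Luc7l in 4, and Snrpa and Snrpc in Other alone, at 0.27 and 0.22. Snrnp70, which encodes the U1 70K protein, was higher in all 8 tables that list it, from 0.14 in endothelial cells to 0.66 in pericytes. In oligodendrocytes it was the third highest member at 0.35, with detection in 44.6% of GWI nuclei against 35.3%. Luc7l2, which associates with U1, was higher in all 9 tables, from 0.05 in oligodendrocytes to 0.34 in OPCs. Because it was detected in 94.6% of GWI and 93.1% of control excitatory neurons, detection could hardly differ there. Luc7l3 was higher in 8 of 9 tables. Its values were 0.27 for excitatory neurons, 0.30 for inhibitory neurons, 0.23 for astrocytes, 0.37 for OPCs, 0.17 for oligodendrocytes, 0.13 in microglia, 0.14 in endothelial cells and 0.19 in Other, with -0.70 in pericytes, where detection was 20.5% against 27%. Luc7l was higher in the 4 tables that list it, from 0.07 in excitatory neurons to 0.61 in endothelial cells.

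Among the other snRNP proteins, Snrpb, which encodes the Sm B proteins of the ring shared by spliceosomal snRNPs, was higher in the 4 tables that list it. It stood at 0.33 in excitatory neurons, 0.34 in inhibitory neurons, 0.23 in astrocytes and 0.62 in Other, where 31.7% of GWI and 20.8% of control nuclei had it. Snrnp48, a protein of the minor spliceosome, was mixed, at -0.49 in OPCs, -0.09 in oligodendrocytes and 0.13 to 0.26 in the other 4 tables that list it. Snrnp200, the helicase that unwinds U4 from U6, was lower in excitatory neurons (-0.06), inhibitory neurons (-0.09) and Other (-0.25), and stood at 0.51 in endothelial cells. Snrpn, an imprinted gene for a neuronal Sm protein, stood at -0.13 in astrocytes, 0.13 in Other and 1.06 in endothelial cells, and it overlaps Snurf on the same strand.

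The branch point complexes SF3A and SF3B split by subunit. Sf3b1, the largest SF3B subunit, was higher in all 9 tables, by 0.05 to 0.20 in 8 of them and by 0.73 in pericytes. Sf3b3 was higher in all 6 tables that list it, from 0.10 in excitatory neurons to 0.65 in endothelial cells. It stood at 0.45 in microglia, where 10.4% of GWI and 7.8% of control nuclei had it. Sf3b6, whose protein lies at the branch point, was higher in its 4 tables, with 0.26 in excitatory neurons and 0.55 in Other. Sf3b2 ran the other way in 5 of 8 tables. It stood at -0.14 in excitatory neurons, -0.18 in inhibitory neurons, -0.34 in OPCs, -0.25 in astrocytes and -0.79 in pericytes. The other values of Sf3b2 were 0.19 in microglia, 0.18 in endothelial cells and 0.07 in Other. It was detected in 5.1% of GWI and 11.1% of control pericytes, and in 10.1% and 8.9% of microglia. In both it thus passed the 10% floor only in the library where it was higher. Sf3a1 was among the lowest members of Other at -0.39, with 23.9% of GWI and 28.3% of control nuclei positive.

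Genes of hnRNPs were higher in a majority of tables but by less than the SR genes. Their median log2 fold change was 0.09 in excitatory neurons, with 12 of 17 higher, 0.14 in inhibitory neurons, with 14 of 17 higher, 0.16 in oligodendrocytes, with 7 of 9, 0.20 in OPCs, with 13 of 16, 0.09 in astrocytes, with 11 of 14, 0.17 in microglia, with 11 of 13, and 0.09 in Other, with 10 of 16. In each of these tables but OPCs that median lay below the SR median. The share of all listed genes that were higher ran from 44.5% to 53.1% over these tables.

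Hnrnpdl, which encodes an hnRNP related to the AU-rich element binding protein hnRNP D, was higher in 7 of the 8 tables that list it. It was detected in 57.2% of GWI against 44.7% of control excitatory neurons, 46.7% against 37.4% of inhibitory neurons, 21.5% against 15.7% of oligodendrocytes and 33% against 23.5% of OPCs. The shares were 42.1% against 34% in astrocytes, 18.8% against 15.5% in microglia and 73.7% against 57.4% in Other. In pericytes the order was reversed, with 10.3% of GWI and 20.6% of control nuclei. The log2 fold changes were 0.39, 0.50, 0.40, 0.35, 0.25, 0.23 and 0.41 in the first 7 tables named and -1.10 in pericytes. Its inhibitory neuron value was the single member past 0.5 in that table. Hnrnpd itself stayed close to 0 in most tables, from -0.09 in oligodendrocytes to 0.09 in pericytes, with 0.28 in microglia, -0.18 in Other and -0.33 in endothelial cells.

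Hnrnpa2b1, which also binds transport signals in neuronal mRNAs, was higher in 8 of 9 tables, from 0.10 in Other to 0.48 in microglia, where detection was 44.9% against 30.8%. Endothelial cells had -0.20. Hnrnpk, a binder of cytosine-rich RNA, stood between 0.20 and 0.32 in the 6 tables that list it outside the vascular ones, and at -0.73 in endothelial cells and -0.39 in pericytes. The vascular tables thus differed in sign from the other 6. The G-run binder Hnrnph1 was higher in all 8 tables that list it, from 0.11 in oligodendrocytes and astrocytes to 0.44 in OPCs and 1.55 in pericytes. Its relative Hnrnph2 was higher in 6 of 7 tables but had the lowest value of any member in pericytes, -1.74, with 3.8% of GWI and 11.1% of control nuclei positive. Hnrnpc, a binder of uridine tracts, was higher in all 7 tables that list it, from 0.08 in inhibitory neurons to 0.56 in pericytes. Hnrnpu, a nuclear matrix protein that overlaps Cox20 on the other strand, was higher in 8 of 9, from 0.06 in microglia to 0.33 in OPCs, and stood at -0.54 in pericytes.

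Several hnRNPs went against the majority. Hnrnpl, a binder of CA repeats, was lower in 5 of 6 tables, at -0.08 for excitatory neurons, -0.13 for inhibitory neurons, -0.07 for oligodendrocytes, -0.28 for OPCs and -0.10 in pericytes, with 0.18 in microglia. Hnrnpr, which binds neuronal mRNAs, stood at -0.08 in excitatory neurons, -0.07 in inhibitory neurons, -0.11 in astrocytes and -0.13 in Other, and at 0.30 in OPCs, 0.86 in endothelial cells and 0.57 in pericytes. Hnrnpul1 was lower in both neuron types and microglia, between -0.08 and -0.15, and at 0.05 to 0.16 in the other 3 tables. Hnrnpul2 and Hnrnpf were among the 3 lowest members of excitatory neurons, at -0.18 and -0.17.

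RBM genes divided in inhibitory neurons and were mostly higher elsewhere. In inhibitory neurons 7 of 15 listed RBM genes were higher and 8 lower, with a median of -0.05 that became 0.02 as a mean, while in excitatory neurons 13 of 18, in OPCs 5 of 8, in oligodendrocytes 5 of 5, in astrocytes 12 of 13, in microglia 6 of 7, in endothelial cells 11 of 14, in pericytes 4 of 7 and in Other 17 of 20 were higher. Of all listed genes, 50.6% were higher in inhibitory neurons, and 44.5% to 53.1% over the 9 tables. Rbm25 and Rbm39 are speckle proteins. Rbm25, which acts with U1, was higher in all 9 tables, from 0.08 in oligodendrocytes to 0.84 in endothelial cells. Rbm39, a U2AF-like factor, was higher in 8 of 9, from 0.18 in Other to 0.33 in astrocytes and 0.55 in endothelial cells, and at -0.30 in pericytes. In astrocytes 76.8% of GWI and 68.1% of control nuclei had it. Rbm26 and Rbm27 are relatives that link nuclear RNA to decay. Rbm26 was higher in 8 of 9 tables, from 0.07 in microglia to 0.82 in pericytes, with -0.42 in endothelial cells. Rbm27 had the highest member value in pericytes, 1.84, with detection in 10.3% against 3.2% of nuclei. Rbm28, a nucleolar protein linked to snRNPs, was higher in all 6 tables that list it, from 0.09 to 0.85.

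Rbm5, Rbm6 and Rbm10 are related regulators of exon choice, and their values differed. Rbm5 stood between 0.06 and 0.25 in 5 tables and at -0.11 in endothelial cells and -0.41 in pericytes. Rbm6 lay between -0.10 and 0.30 over 7 tables. Rbm10 was lower in 5 of 6 tables, at -0.17 in excitatory neurons, -0.19 in OPCs, -0.25 in astrocytes, -0.09 in Other and -1.19 in endothelial cells, and stood at 0.21 in inhibitory neurons. It overlaps Ndufb11 on the other strand. Other low members of the neurons were Rbm20, a regulator of titin splicing in the heart, with -0.21 for excitatory and -0.17 for inhibitory cells, and in the inhibitory table Rbm4 at -0.19 and Rbm24 at -0.20. In Other the highest members were Rbm8a, a subunit of the exon junction complex, at 0.69 and Rbm42 at 0.66, and the lowest was the nucleolar Rbm19 at -0.56. There 14.6% of GWI and 8.8% of control nuclei had Rbm8a, and 10% against 5.1% had Rbm42. Both thus passed the 10% floor in the GWI library alone, and Rbm19, at 7.9% against 10.7%, in the control library alone.

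The vascular tables held the extremes. In endothelial cells the highest members were Snrnp40, a protein of the U5 snRNP, at 2.85 with detection in 12.6% against 2.1% of nuclei, Snrnp27 at 2.18 with 10.7% against 5.3%, and Rbm42 at 2.16 with 10.7% against 3.2%. Each passed the 10% floor in the GWI library alone and so was listed only through the library where it was higher. Of 54 members in that table, 12 passed the floor in 1 library only, 11 of them in the GWI library, whereas 8 of 32 did in pericytes and 2 to 7 in each of the other 7 tables. Rbm10 at -1.19, Hnrnpk at -0.73 and Hnrnpa3 at -0.59 were the lowest. In pericytes the highest were Rbm27 at 1.84, Hnrnph1 at 1.55 with detection in 32.1% against 12.7%, and Srsf4 at 1.04, and the lowest were Hnrnph2, Hnrnpdl and, at -1.01, Rbm33. Of these, Rbm27 (10.3% against 3.2%) and Srsf4 (19.2% against 7.9%) passed the floor in the GWI library alone. Hnrnph2 (3.8% against 11.1%) did so in the control library alone. Pericyte marker genes were lower in the endothelial table of the GWI library, with 0 of 3 listed higher and summed detection of 75.7% against 111.5%. The part of this in the endothelial values was not tested.

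Members with an RS repeat stood higher than the rest in most tables. By the codon rule shown above, with at least 10 pairs in the best window of 30 codons, 18 of the 83 members were RS-rich. They were Srsf1 to Srsf7, Srsf10, Srsf11, Rsrp1, the 3 Luc7-like genes, Rbm26, Rbm27, Rbm39, Snrnp27 and Snrnp70. Rbm39 and Snrnp70 were just inside, with 11 pairs, and Srsf12 just outside, with 8. The median log2 fold change of RS-rich members against the other 65 was 0.21 against 0.10 in excitatory neurons, 0.25 against 0.12 in inhibitory neurons, 0.23 against 0.11 in oligodendrocytes and 0.25 against 0.13 in OPCs. In astrocytes it was 0.24 against 0.11, in microglia 0.28 against 0.18, in Other 0.18 against 0.13 and in pericytes 0.28 against 0.09. Endothelial cells had the opposite order, 0.32 against 0.36. Of listed RS-rich members, 16 of 17 were higher in excitatory neurons, against 31 of 43 other members. These counts were 15 of 16 against 26 of 38 in inhibitory neurons and 15 of 15 against 26 of 32 in astrocytes. Oligodendrocytes had 13 of 14 against 10 of 13, and OPCs 12 of 14 against 17 of 25. Microglia had 13 of 14 against 19 of 22, and Other 13 of 14 against 39 of 54. Endothelial cells had 12 of 16 against 28 of 38, and pericytes 8 of 13 against 10 of 19. Of all listed genes, 44.5% to 53.1% were higher, as given above for each cell type.

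The same codon rule found 53 RS-rich genes outside the set, among them genes of the speckle proteins Son, Srrm1, Srrm2 and Arglu1. Their medians were lower than those of RS-rich members in 8 tables. They were 0.06 for excitatory neurons, 0.07 for inhibitory neurons, 0.12 for astrocytes, 0.10 for OPCs, 0.09 for oligodendrocytes, 0.08 for microglia, 0.11 in endothelial cells and 0.12 in Other. In pericytes the median was 0.32. Of these outside genes 23 of 38 were higher in excitatory neurons, 22 of 37 in inhibitory neurons, 14 of 23 in oligodendrocytes, 23 of 35 in OPCs, 22 of 31 in astrocytes, 13 of 23 in microglia, 22 of 40 in endothelial cells, 16 of 27 in pericytes and 31 of 44 in Other. The RS split was chosen after the values were seen.

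**Figure D4:**
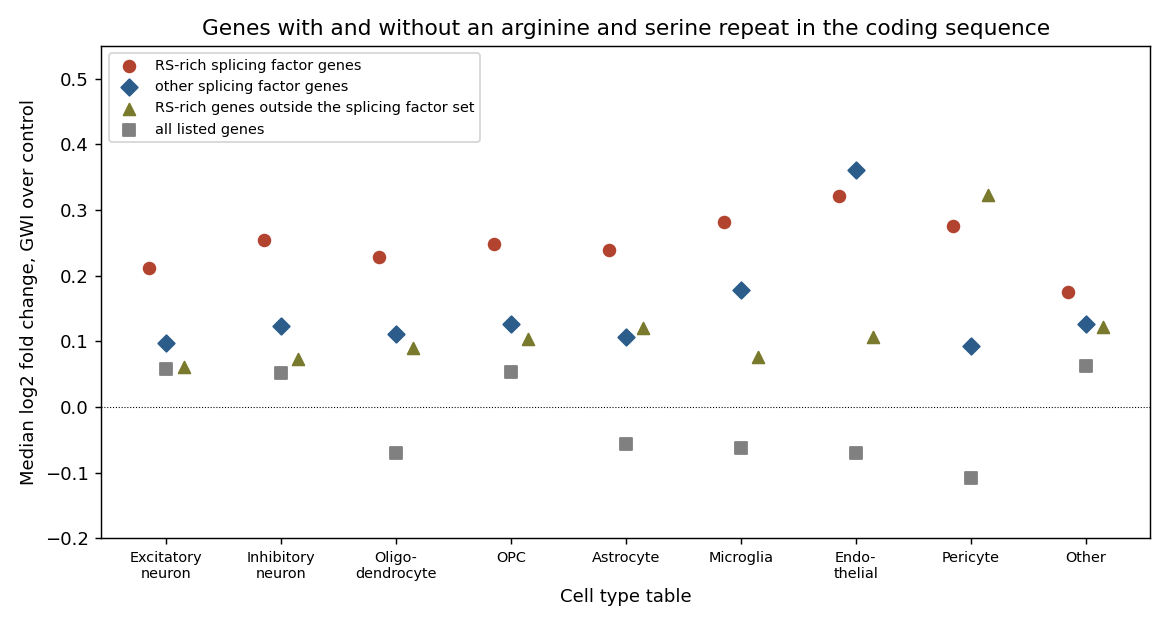
Median log2 fold change of the GWI over the control library (vertical axis) in each cell type table for RS-rich splicing factor genes (circles), other splicing factor genes (diamonds), RS-rich genes outside the set (triangles) and all listed genes (squares). The circles lie above the diamonds in 8 of 9 tables, for example 0.21 over 0.10 in excitatory neurons, and endothelial cells have the reverse order.

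Gene length moved with these values. The members were short, with a median length of 14.2 kb against 37.3 kb over the 10312 listed genes found in GENCODE M21, and ranged from 2.68 kb for Hnrnpa0 to 189.8 kb for Rbm20. Short genes in general were higher in the GWI library. Among genes under 20 kb the medians of members and of all listed genes were 0.15 and 0.12 in excitatory neurons, 0.22 and 0.15 in inhibitory neurons, 0.24 and 0.24 in oligodendrocytes, 0.25 and 0.20 in OPCs, 0.21 and 0.12 in astrocytes, 0.29 and 0.22 in microglia, and 0.19 and 0.11 in Other. In these 7 tables the short members' medians thus lay within 0.1 of those of all short genes. The shares of short genes that were higher lay furthest apart in astrocytes, with 95.5% of members against 65.2% of all. They were 100% against 76.4% in microglia, 88.6% against 70.1% in excitatory neurons and 81.6% against 60.0% in Other. Gaps were narrower in inhibitory neurons (85.7% against 73.0%), oligodendrocytes (92.3% against 82.5%) and OPCs (73.7% against 65.8%). Endothelial cells had 69.2% against 47.9%, and pericytes the reverse order, 43.8% against 54.0%. Among genes of 20 kb or more, members and all genes had opposite signs in every table. The medians were 0.08 and -0.06 in excitatory neurons, 0.11 and -0.07 in inhibitory neurons, 0.13 and -0.08 in oligodendrocytes, 0.12 and -0.06 in OPCs, 0.10 and -0.07 in astrocytes, 0.18 and -0.07 in microglia, and 0.13 and -0.05 in Other. Long members that were higher include Luc7l2 at 58.1 kb, Rbm25 at 51.9 kb, Sf3b1 at 42.3 kb and Luc7l3 at 34.1 kb. In endothelial cells the medians of members and all genes were 0.34 and -0.08 under 20 kb and 0.36 and -0.07 above it. In pericytes they were -0.08 and 0.16 under 20 kb and 0.31 and -0.12 above it.

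**Figure D5:**
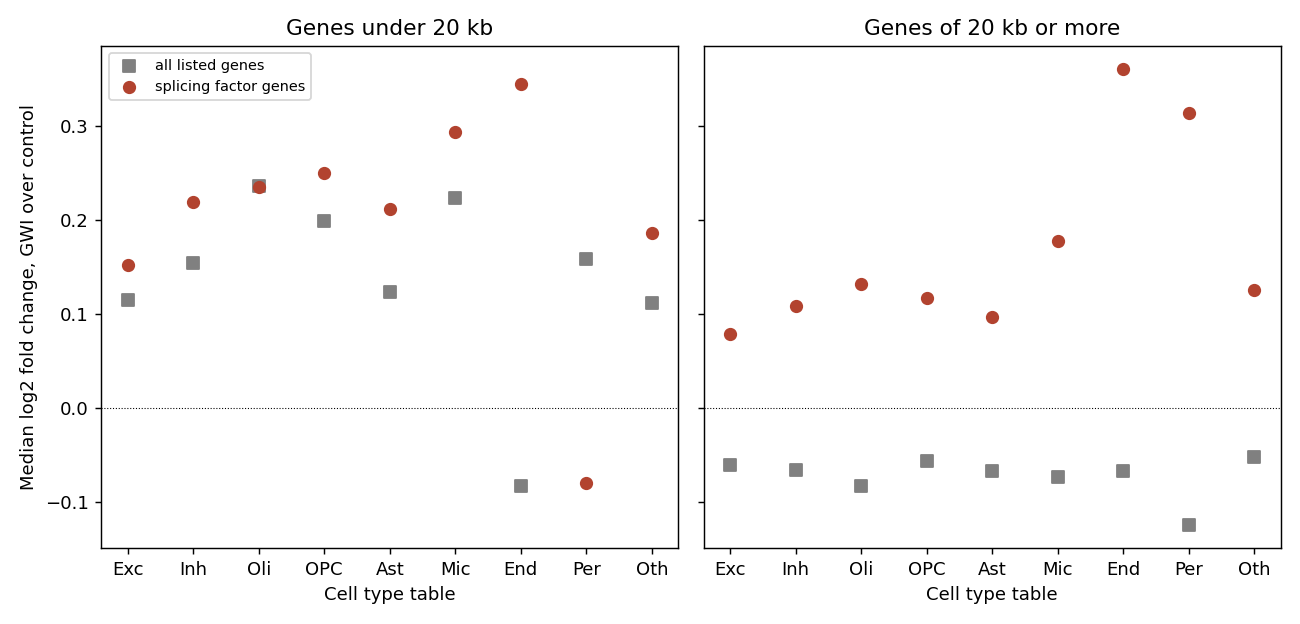
Median log2 fold change of the GWI over the control library (vertical axis) of splicing factor genes (red circles) and all listed genes (grey squares) in each cell type table, for genes under 20 kb (left) and of 20 kb or more (right). At 20 kb or more the red circles are above 0 and the grey squares below 0 in all 9 tables, while under 20 kb both are above 0 in the first 6 tables, for example 0.15 and 0.12 in excitatory neurons.

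Within the long genes the RS-rich members also stood above the other members in most tables. Their medians were 0.16 against 0.05 in excitatory neurons, 0.22 against 0.08 in inhibitory neurons, 0.22 against 0.09 in astrocytes, 0.25 against 0.09 in OPCs, 0.20 against 0.07 in oligodendrocytes and 0.18 against 0.10 in Other. In microglia the order was reversed, 0.16 against 0.18, as it was in endothelial cells, 0.17 against 0.44. Pericytes had 0.55 against 0.27. Under 20 kb the medians were 0.26 against 0.12 in excitatory neurons, 0.29 against 0.18 in inhibitory neurons and 0.32 against 0.20 in astrocytes. They were 0.38 against 0.25 in OPCs, 0.29 against 0.16 in oligodendrocytes and 0.40 against 0.20 in microglia. Short members had 0.45 against 0.22 in endothelial cells and 0.16 against -0.36 in pericytes. In Other their order was reversed, 0.16 against 0.21. Annotated transcripts that are targets of nonsense-mediated decay were present for 39 members, or 47.0%, against 30.7% of 9678 listed protein-coding genes. A retained-intron transcript was annotated for 63 members, or 75.9%, against 62.8%. Sequencing of transcript 3′ ends does not tell such isoforms apart, so the deposited values sum over them.

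Other genes of splicing did not all share the direction. Counts of these lists stand beside 44.5% to 53.1% of all listed genes that were higher, as given above for each cell type. Among SR protein kinases and phosphatases, 2 of 6 listed genes were higher in excitatory neurons and 3 of 8 in inhibitory neurons, with medians of -0.08 and -0.08, while 4 of 6 were higher in microglia with a median of 0.21. The family divided by gene. Clk4, a kinase of SR proteins, was higher in 8 of 9 tables, with 0.22 in excitatory neurons, 0.17 in inhibitory neurons and 0.41 in oligodendrocytes, and at -0.88 in pericytes. Clk1 was higher in all 7 tables that list it, from 0.11 to 0.23. Prpf4b was higher in all 9, from 0.06 in excitatory neurons and oligodendrocytes to 0.90 in pericytes. Srpk2, a cytoplasmic SR protein kinase, was lower in all 7 tables that list it, from -0.06 to -0.25, and Dyrk1a in 7 of 8.

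Regulators of neuronal and tissue splicing divided evenly, with 15 of 30 listed genes higher in excitatory neurons, 14 of 29 in inhibitory neurons and 13 of 29 in astrocytes. Rbfox3, the neuronal nuclear antigen NeuN, was lower in all 9 tables. Its values ran from -0.22 in OPCs to -0.40 in oligodendrocytes and endothelial cells and -1.30 in pericytes. Rbfox3 was detected in 9.2% of GWI and 11.4% of control oligodendrocytes, and in 6.4% and 12.7% of pericytes. In both it thus passed the detection floor in the control library alone, where it was higher. In excitatory neurons the largest values of the list were those of Ptbp2 at 0.30, Celf5 at -0.28 and Celf4 at -0.27. In inhibitory neurons they were those of Msi2 at -0.42, Rbfox3 at -0.35 and Celf5 at -0.31. Ptbp2, the neuronal polypyrimidine tract binder, was higher in 8 of 9 tables.

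Nuclear speckle genes were higher in 12 of 16 cases in excitatory neurons, 16 of 22 in inhibitory neurons, 16 of 20 in OPCs, 14 of 18 in astrocytes, 11 of 15 in oligodendrocytes, 11 of 15 in microglia, 12 of 23 in endothelial cells, 12 of 18 in pericytes and 11 of 17 in Other. The endothelial count of speckle genes lay near the 48.4% of all listed genes that were higher there. Malat1, a speckle RNA, was higher in all 9 tables, from 0.22 in microglia to 0.41 in pericytes. Thoc1, a subunit of the TREX export complex, was at 0.25 and 0.33 in excitatory and inhibitory neurons, and Arglu1 at 0.20 and 0.24. RNA helicases of splicing were higher in 8 of 9 cases in excitatory neurons, 10 of 12 in inhibitory neurons, 10 of 10 in astrocytes, 6 of 6 in microglia, 12 of 13 in Other and 3 of 4 in oligodendrocytes, but in 3 of 5 in OPCs, 5 of 10 in endothelial cells and 1 of 5 in pericytes. Ddx5 was higher in all 9 tables, from 0.12 in Other to 0.67 in pericytes, and Dhx15, which releases spent spliceosomes, reached 0.53 in OPCs and 0.54 in microglia. Of the other spliceosome parts 19 of 28 were higher in excitatory neurons, 28 of 32 in inhibitory neurons, 19 of 23 in astrocytes, 7 of 10 in microglia and 30 of 42 in Other, but 8 of 21 in OPCs, 17 of 33 in endothelial cells, 7 of 11 in pericytes and 4 of 7 in oligodendrocytes. The endothelial count of these parts was again near the 48.4% of all listed genes, and the OPC count was below the 50.7% there. Cwc15, a component of the catalytic spliceosome, stood at 0.37, 0.54 and 0.50 in excitatory neurons, inhibitory neurons and astrocytes.

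Measures of the libraries as a whole differed beside these results. In excitatory neurons 59 of 60 members were detected in a larger share of GWI nuclei, but so were 80.0% of all listed genes. In inhibitory neurons 42 of 54 members were, against 50.5%, in microglia 35 of 36, against 67.4%, and in astrocytes 44 of 47, against 67.4%. The counts were 25 of 27 in oligodendrocytes (background 53.2%), 32 of 39 in OPCs (64.3%), 35 of 54 in endothelial cells (42.1%), 18 of 32 in pericytes (45.2%) and 61 of 68 in Other (66.9%). Mitochondrially encoded RNAs had medians from -0.22 in astrocytes to 0.38 in pericytes. Inhibitory neuron markers were lower in the GWI library in some tables, with 0 of 3 listed higher in excitatory neurons. In astrocytes 0 of 2 were higher and in Other 0 of 2. In inhibitory neurons 2 of 2 were higher, in OPCs 1 of 2 and in endothelial cells 1 of 1. The part of depth in the splicing factor values was not tested.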

How the data were processed

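Nuclei of hippocampus went through 10x Genomics 3′ v3.1 library preparation, per the labels' protocols, with a stated depth of 25000 reads or more for each nucleus. The submitters' processing notes name Cell Ranger, with no version, and GRCm38 (mm10). Not given in the sources used here are the cell typing, the handling of doublets and free RNA, the scaling of the means and the authors' test.

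The authors' tables hold values of 3 kinds. The deposited log2 fold changes compare the 2 libraries, per the file headers, and were used as deposited. Fractions of nuclei in which a gene was detected, as the authors deposited them, are printed as percentages. The authors' p-values compare nuclei and were not used, because nuclei of the same library do not count as replicates. The headers number the groups, and the first was read as GWI from the comparison label, which writes PBS where the library labels write vehicle.

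Each group is 1 library, so no test was run. Members were described by direction, by median and by a size rule (0.5 or more on the log2 scale, in either direction), each beside all listed genes of the table. Members and gene lists were chosen with earlier results of these data known. Genes named were the 3 highest and 3 lowest members of each table, members listed in at least 6 of the 9 tables, members of at least 0.25 in both neuron tables, Rsrp1, Srsf5, Srsf11, Luc7l2, Luc7l3, Rbm25 and Rbm39, and up to 3 genes with the largest value of each other list and table described. Other genes named, among them Luc7l, Snrpa, Snrpc, Sf3b6, Snrnp200, Snrpn, Hnrnpd, Atp6v0b, Clk1, Prpf4b, Srpk2, Dyrk1a, Ddx5, Dhx15 and Arglu1, were chosen after their values were seen. Gene positions, lengths, transcripts and coding sequences came from GENCODE M21, in which 97.3% of symbols were found, and promoters from RefSeq. Overlapping genes can share reads. The counting steps were tested on simulated data. Other settings were centring on the table median, detection in at least 25% of nuclei, the mean, leaving out RBM genes, and size rules of 0.25 and 1. A floor of 10% detection in both libraries and the 20 kb split were added after the data were seen. The software was pandas 2.3.3, numpy 2.4.6 and matplotlib 3.10.9 under Python 3.11.15.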

Additional observations from a re-analysis of the deposited data

Results flagged for a closer look

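Hnrnpdl differed in sign between cell types. In the authors' deposited tables it stood at -1.10 in pericytes and between 0.23 and 0.50 in the other 7 tables that list it, with 0.50 in inhibitory neurons. Srsf10 stood at -0.89 in pericytes and -0.27 in endothelial cells, and at 0.60 in OPCs. In pericytes Srsf10 was detected in 7.7% of GWI and 12.7% of control nuclei. It thus passed the 10% floor there in the control library alone, where it was higher. Both drew attention because a difference in one cell type ran against one past 0.5 in another. With 1 library per group these differences between cell types were not tested.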

How the results depend on the processing

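Every median of listed members stayed above 0 in all 9 tables under each setting run, except that of pericytes among genes under 20 kb, which was -0.0794. Centred on the table median, the medians were 0.0579 in excitatory neurons, 0.285 in pericytes and 0.0814 in Other. With detection in at least 25% of nuclei they were 0.30 in OPCs, 0.140 in endothelial cells and 0.331 in pericytes. The pericyte mean was 0.0756. The endothelial median was 0.216 without RBM genes and 0.184 with 10% detection in both libraries. Among genes of at least 20 kb the medians were 0.108 in inhibitory neurons, 0.0966 in astrocytes and 0.314 in pericytes. The cause of these shifts was not tested.

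The shares of all listed genes past size rules of 0.25 and 1, or past 0.5 after centring, were not computed. Those counts therefore show only how the number of members moves with the rule. A size rule of 0.25 gave 11 members higher for excitatory neurons, 14 for inhibitory neurons, 11 for astrocytes, 14 for OPCs, 8 for oligodendrocytes, 16 in microglia, 15 in pericytes and 17 in Other. Lower members numbered 5 in OPCs, 1 in microglia, 8 in endothelial cells, 12 in pericytes and 3 in Other. A size rule of 1 left 10 higher and 1 lower in endothelial cells, 3 and 3 in pericytes, and 0 in either direction in each of the other 7 tables. Centred values past 0.5 numbered 0 higher in inhibitory neurons, 2 in astrocytes, 1 in oligodendrocytes, 5 in microglia and 3 in Other, and 1 lower in OPCs. With 10% detection in both libraries, 0.5 was passed upward by 0 in microglia, 14 in endothelial cells and 3 in Other, and downward by 4 in pericytes and 0 in Other. The inhibitory neuron median of RBM genes, -0.05, became a mean of 0.0226, and the pericyte median of SR kinases and phosphatases, -0.11, became 0.000638 when centred. No paired analysis was possible because each group is 1 library, and for the same reason no replicate could be left out. Without the depth reached in each library, no interval can be put on differences in genes detected near 10% of nuclei.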
